A study of Mus musculus with 17 samples.

Results

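The replication-dependent histone genes encode the core histones H2A, H2B, H3 and H4, which form the nucleosome, and the linker histone H1, which binds the DNA between nucleosomes. The set described here holds the 68 genes whose symbol begins with Hist1h, Hist2h, Hist3h or Hist4h, of 23980 genes in each of the deposited expression tables. They comprise 6 H1, 18 H2A, 19 H2B, 12 H3 and 13 H4 genes. The Hist1 cluster on chromosome 13 holds 54 of them, the Hist2 cluster on chromosome 3 holds 10, the Hist3 cluster on chromosome 11 holds 3, and the remaining 1 is on chromosome 6. Of the 6 linker genes, Hist1h1t encodes the testis-specific H1t, and among the core genes Hist1h2ba and Hist1h2aa encode the germ-cell variants TH2B and TH2A.

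Poly(A)-selected RNA of 17 mouse libraries of the strain C57BL6/J was sequenced. Leptotene/zygotene (L/Z) spermatocytes, which are germ cells in early meiotic prophase, were sorted by flow cytometry from animals aged 3 to 4 weeks, and gave 2 libraries for each of 3 genotypes: Pld6 KO, Dnmt3l KO and wild type (WT). Whole testes at postnatal day 0 (P0) gave 2 WT, 4 Pld6 KO, 2 Dnmt3l KO and 3 double knockout (DKO) libraries, in which germ cells are a minor part and gonadal somatic cells and blood are also sampled. The product of Pld6 acts in the biogenesis of PIWI-interacting RNAs. That of Dnmt3l has no methyltransferase activity itself and assists de novo DNA methylation in prospermatogonia.

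Most replication-dependent histone mRNAs are made during S phase and end in a short stem-loop in place of a poly(A) tail. The stem-loop-binding protein SLBP holds the loop while the U7 small nuclear ribonucleoprotein directs cleavage a few bases after it. Some cluster genes can also be read through to a polyadenylation signal further downstream, and such transcripts carry a tail, as do most mRNAs. Levels in poly(A)-selected libraries therefore do not measure the tailless form, and what part of the fragments came from it was not tested.

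The stem-loop was searched in the GENCODE M21 transcripts as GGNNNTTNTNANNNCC with pairing arms. It was present in a transcript of 46 of the 68 members (67.6%), against 77 of all 55341 genes (0.139%), for which the longest transcript alone was searched. Members used 8 spellings of it. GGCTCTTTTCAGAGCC was carried by 26 members, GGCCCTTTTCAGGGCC by 7 and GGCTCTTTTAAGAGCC by 6. The following copies are shown for the members on which the results below turn, in capitals the stem and loop and in lower case the flanking bases, read from the mm10 build on the strand of the gene.

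Hist1h1c, chr13:23739507-23739532 (plus strand): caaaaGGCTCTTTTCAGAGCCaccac
Hist1h1e, chr13:23621777-23621802 (minus strand): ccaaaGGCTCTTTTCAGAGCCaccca
Hist1h1t, chr13:23696520-23696545 (plus strand): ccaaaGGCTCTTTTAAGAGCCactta
Hist3h2a, chr11:58955167-58955192 (plus strand): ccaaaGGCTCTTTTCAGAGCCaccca
Hist1h3f, chr13:23544927-23544952 (plus strand): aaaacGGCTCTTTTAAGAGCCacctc
Hist1h4j, chr13:21735432-21735457 (plus strand): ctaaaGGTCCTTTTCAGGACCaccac
Hist1h4n, chr13:21831793-21831818 (minus strand): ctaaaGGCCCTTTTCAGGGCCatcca

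The annotated transcripts went on for different lengths after the loop. They extended 31 nt in Hist1h4n and 185 nt in Hist1h1t, but 840 nt in Hist1h1c, 1153 nt in Hist1h1e and 1643 nt in Hist3h2a. No match was found in Hist1h2ba, Hist1h2aa, Hist1h1a, Hist1h2bc or Hist2h2be, which says only that these letters are not in their annotated transcripts. Members were further divided, after their values had been seen, into 19 with more than 1 exon or a GENCODE transcript of at least 1000 nt (long or spliced) and 49 others (short). The paper analysed RefSeq genes, whose annotated spans can be shorter. Hist3h2a spans 508 bp in RefSeq against 2146 nt in GENCODE, and Hist1h1c 725 bp against 1560 nt. Hist2h2be spans 2667 bp against 2620 nt. What part of the counted fragments lay past the loop was not tested.

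Promoters were compared over the 250 bases before and 50 bases after the RefSeq start (GRCm38.p6), which were found for 61 members (62 promoters). The CCAAT box, searched on both strands, was in 53 of the 62 (85.5%), against 37.4% of all 32544 promoters. TATAAA was in 56.5% against 13.6%. The octamer-like ATTTGCA was in 14, of which 7 were H2A and 7 were H2B promoters, or 22.6% against 4.04%. These are not all separate stretches. Windows of some H2A and H2B neighbours overlap, as for Hist1h2ae and Hist1h2bg, and a match there can count for both. CCAAT was present in every H1, H2A, H2B and H3 promoter and in 3 of the 12 H4 promoters.

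The upstream 250 bases are given for the germ-cell linker gene Hist1h1t and the germ-cell H2B gene Hist1h2ba, with motif matches in capitals.

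Hist1h1t, chr13:23695561-23695810 (plus strand): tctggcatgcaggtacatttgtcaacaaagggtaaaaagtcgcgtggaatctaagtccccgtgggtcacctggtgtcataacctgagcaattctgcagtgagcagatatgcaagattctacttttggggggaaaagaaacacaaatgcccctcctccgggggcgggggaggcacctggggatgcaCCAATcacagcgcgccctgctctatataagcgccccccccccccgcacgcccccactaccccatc
Hist1h2ba, chr13:23934157-23934406 (minus strand): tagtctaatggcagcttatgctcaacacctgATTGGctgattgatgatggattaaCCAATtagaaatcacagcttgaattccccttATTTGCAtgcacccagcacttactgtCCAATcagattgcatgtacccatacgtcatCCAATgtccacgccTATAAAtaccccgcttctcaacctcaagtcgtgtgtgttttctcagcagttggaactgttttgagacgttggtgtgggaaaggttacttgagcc

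Hist1h1t held 1 kind of match, CCAAT, and no TATAAA, which says only that these exact letters are absent. Its sequence holds the similar run ctatataag before the start. Hist1h2ba held all 3 kinds. Its window overlapped that of Hist1h2aa, which lies on the opposite strand and starts at position 23934437, so that the pair share 1 intergenic stretch.

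Libraries held 5194238 to 14578341 fragments at L/Z and 9900346 to 23498968 at P0. The deleted genes followed the labels: Pld6 had 344 and 352 fragments in the WT L/Z libraries and 0 for both Pld6 KO, and Dnmt3l had 19 and 11 for WT and 0 for both Dnmt3l KO. At P0, Pld6 was at 0 to 2 fragments in the Pld6 KO and DKO libraries, and Dnmt3l at 0 to 3 for Dnmt3l KO and DKO. P0 Pld6 KO replicate 1 had 6 Dnmt3l fragments, against 30 to 145 in the other 3 Pld6 KO libraries, and its summed prospermatogonial markers stood at 112 CPM (counts scaled to library size), against 333 to 410. The 10 L/Z spermatocyte markers summed to 1847 to 7118 CPM in the sorted libraries and to 52.7 to 212 CPM in P0 testes. Some libraries stood apart in RNAs that have no poly(A) tail. At L/Z, replicate 1 of WT and of Pld6 KO had 8.27% and 8.06% of their fragments in the ribosomal RNA precursor Rn45s, against 0.134% to 0.301% in the other 4. Values without both libraries are given below for Hist1h1t, Hist1h2ba, the member medians and the families, from fits in which the remaining WT and Pld6 KO library is assumed to vary like the Dnmt3l KO group.

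Histone cluster RNA was sparse at both stages. All 68 members together held 5159 fragments in the 6 L/Z libraries and 10290 in the 11 P0 libraries. At L/Z, 37 members averaged at least 10 fragments per library and 1, Hist1h1a, at least 50. At P0, 17 averaged at least 10 and 4 at least 50. Hist2h3c1 had under 1 fragment in every library of both stages, and Hist1h2ao in every L/Z library. A filter on low counts left 53 members for testing at L/Z, of 14662 genes, and 31 at P0, of 15901. A member could pass that filter through a group in which it was high, so counts over the tested members do not describe all 68.

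Members also share sequence. A median of 46.4% of the 50-base windows of a member's transcript occurred in another member, and 30 of the 68 shared over 50%. The 6 members with no shared window were Hist1h1a, Hist1h1b, Hist1h1t, Hist2h2bb, Hist2h2be and Hist4h4. Hist1h2ba shared 38.2% of its windows and Hist1h2aa 2.35%, whereas Hist2h2aa2 shared 100%. Values of members with near-identical copies are uncertain, because the estimated counts divide such reads by likelihood. Whether the counting used the strand of the reads is not given in the sources used here, so reads of members that overlap a gene on the opposite strand may not be told apart.

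**Figure D1:**
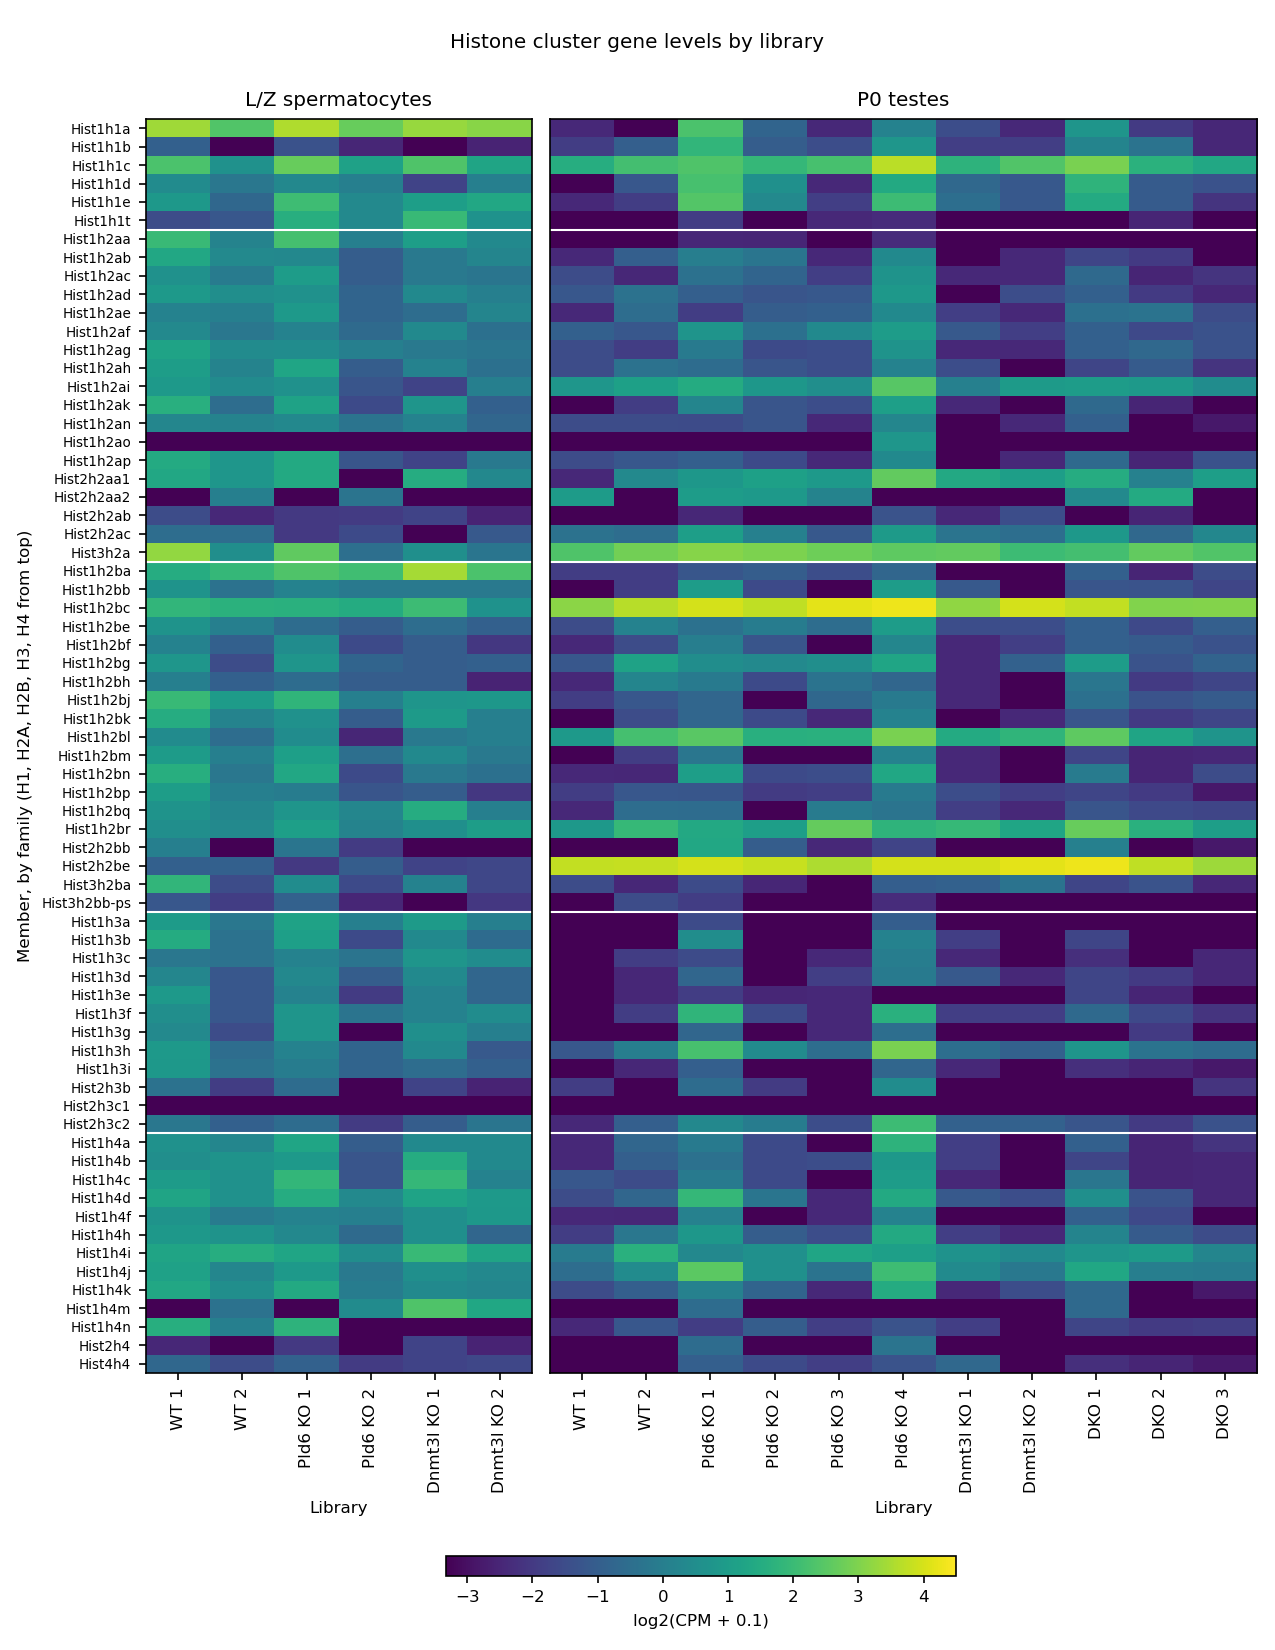
Level of each of the 68 members (vertical axis, ordered by family, with white lines between families) in each library (horizontal axis) as log2(CPM + 0.1), for L/Z spermatocytes on the left and P0 testes on the right. Hist2h2be and Hist1h2bc are bright across the P0 libraries, and Pld6 KO 1 and 4 are brighter than the other P0 libraries for many members.

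The leading members differed between the stages. Levels in FPKM are fragments scaled by depth and by a length that the authors' Cuffdiff run set. How far that length differed from the annotated span was not tested, so the order of shorter and longer genes is uncertain. The stages were set side by side only, because each table was normalised separately and stage coincides with tissue and read type. In L/Z spermatocytes the highest mean over the 6 libraries was that of Hist1h2ba, 22.5 FPKM (range 12.1 to 47.7). It was followed by the linker gene Hist1h1a at 15.8 FPKM (9.35 to 21.7). H4 genes took 5 of the first 10 places, namely Hist1h4i, Hist1h4j, Hist1h4d, Hist1h4c and Hist1h4f at 7.92 to 12.3 FPKM. Hist3h2a stood at 10.5, Hist1h2bj at 9.63 and Hist1h2aa at 9.00 FPKM. The ranges of all neighbours in this order overlapped.

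In P0 testes the order was led by Hist1h2bc at 22.6 FPKM (13.5 to 35.7 over 11 libraries) and Hist3h2a at 17.2 FPKM (10.6 to 23.8). Hist1h2bl stood at 13.7, Hist1h4j at 12.2, Hist1h1c at 8.68 and Hist1h2ai at 7.18 FPKM. Hist1h4i, Hist2h2be, Hist1h3h and Hist2h2aa1 followed at 5.26 to 6.77 FPKM. Of the windows of Hist1h2bl, Hist1h2ai, Hist1h3h and Hist2h2aa1, 82.8%, 84.6%, 93.9% and 89.2% occur in another member, so their places are uncertain. By fragments, which do not correct for length, Hist2h2be, Hist1h2bc, Hist3h2a and Hist1h1c held 50.4% of the P0 member total, whereas the leading 4 members at L/Z (Hist1h1a, Hist1h2ba, Hist1h1c and Hist3h2a) held 22.9%. Of these 6 genes, all but Hist1h1a and Hist1h2ba belong to the long or spliced group. That group of 19, formed from GENCODE transcripts, took 23.9% to 30.3% of a library's member fragments at L/Z and 49.7% to 78.1% at P0.

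The summed level of all members varied widely within genotypes. At L/Z it was 127 and 64.6 CPM for WT, 126 and 46.8 for Pld6 KO, and 102 and 66.6 for Dnmt3l KO. Replicate 1 was the higher library in each of the 3 groups, and the groups overlapped. Replicate 1 exceeded replicate 2 in 48 of the 53 tested members in WT (90.6%, against 44.4% of all tested genes), in 52 for Pld6 KO (98.1% against 46.7%) and in 39 for Dnmt3l KO (73.6% against 48.9%). The tailless RNA Rmrp moved alongside in WT and Pld6 KO, at 45.6 and 3.57 CPM for WT, 49.3 and 0.552 for Pld6 KO, and 1.00 and 0.143 for Dnmt3l KO. The part of this difference in the member sums was not tested.

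At P0 the sums were 45.6 and 70.8 CPM for WT, and 131, 70.4, 68.8 and 163 for Pld6 KO. Dnmt3l KO gave 55.9 and 61.1 CPM, and DKO 98.7, 54.3 and 43.1 CPM. Pld6 KO replicates 1 and 4 and DKO replicate 1 were the highest of the 11 libraries, while Pld6 KO replicates 2 and 3 lay below WT replicate 2.

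**Figure D2:**
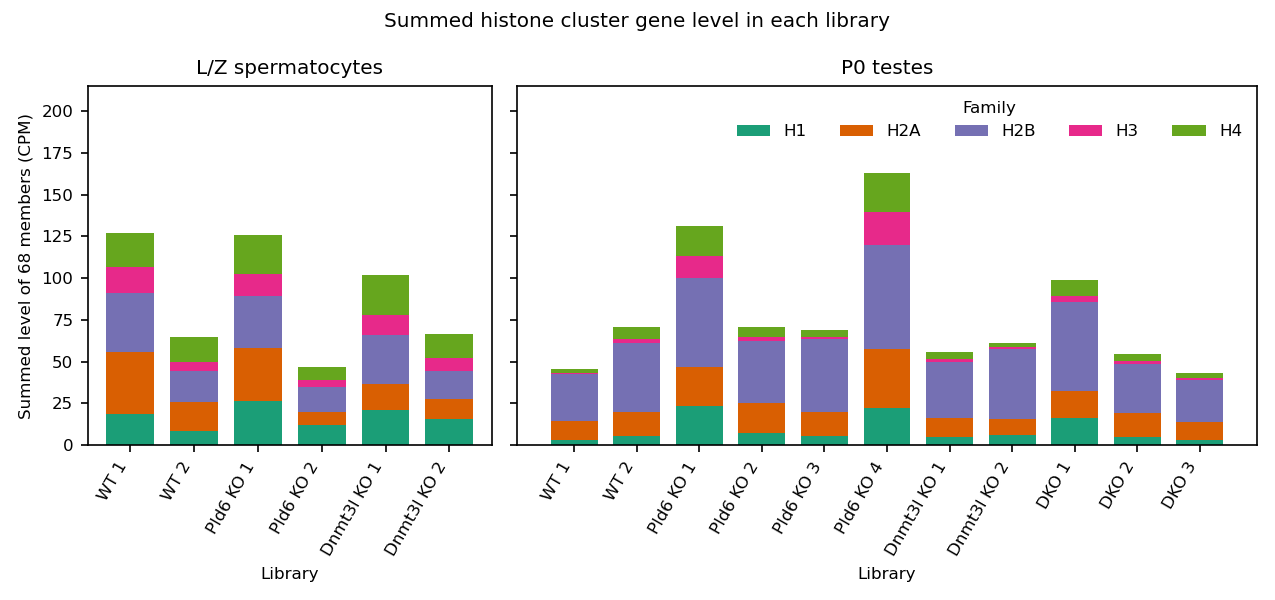
Summed level of the 68 members in CPM (vertical axis, from 0) in each library (horizontal axis), stacked by histone family. At L/Z the first library of each genotype is the taller bar, and at P0 Pld6 KO 1 (131 CPM) and 4 (163 CPM) stand above the other 9 libraries.

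In L/Z spermatocytes the question was which histone cluster genes changed when PIWI-interacting RNA or de novo methylation was lost. A gene was called where its edgeR p, adjusted over all genes tested (the false discovery rate, or FDR), was under 0.05 and it changed more than 2-fold. Between Dnmt3l KO and WT, Hist1h1t was the 1 member called, and it was higher in the mutant. The background was 5.47% of all 14662 genes called (3.89% higher), against 1 of 53 members. Between Pld6 KO and WT, 0 members were called (0.225% of all genes), and between the mutants 0 (0.0477%). In both of these comparisons the DESeq2 Wald test and limma on FPKM also gave 0 calls.

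Hist1h1t encodes H1t, a linker histone known for accumulating in pachytene spermatocytes, the stage that follows zygotene. It had 3 and 4 fragments for WT, 20 and 15 for Pld6 KO, and 19 and 21 for Dnmt3l KO. All 4 mutant libraries lay above both WT libraries. Scaled to library size these are 0.254 and 0.340 CPM for WT, 2.91 and 1.18 for Pld6 KO, and 3.80 and 1.50 for Dnmt3l KO. Group means were 0.297 ± 0.0608 CPM (SD, n = 2), 2.05 ± 1.22 (SD, n = 2) and 2.65 ± 1.62 (SD, n = 2), with the mutants overlapping each other.

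The log2 fold change of Hist1h1t in Dnmt3l KO was 3.03 (SE 0.82, FDR = 0.0478 by edgeR's quasi-likelihood test). In Pld6 KO it was 2.69 (SE 0.82) and was not called (FDR = 0.349 by the same edgeR test, unadjusted p = 0.0070). Pooled over libraries, the ratio of fragments scaled to library size was 6.63 for Dnmt3l KO to WT (exact 95% interval 2.94 to 17.5, counting error only) and 5.95 for Pld6 KO to WT (2.60 to 15.9). The DESeq2 Wald test gave Hist1h1t no adjusted p, and the filter at a mean of at least 50 counts left it untested. Neither alternative is counted below, and in neither was the gene called. The call sat at the threshold. It was lost in 8 of 17 alternatives, with FDR between 0.0263 and 0.279 by edgeR or limma, and it was lost without either WT library (FDR = 0.198 and 0.0946 by edgeR) or either Dnmt3l KO library (FDR = 0.279 and 0.0582 by edgeR). Without the Rn45s-rich libraries, the edgeR FDR was 0.126 with a log2 fold change of 2.83 in Dnmt3l KO, and the log2 fold change in Pld6 KO was 1.78 (FDR = 0.850 by edgeR).

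Markers of germ cell stages also differed between these libraries. Of 10 L/Z spermatocyte markers, 6 (Dmc1, Hormad1, Meiob, Prdm9, Sycp1 and Sycp2) were called higher in Dnmt3l KO than in WT, and the summed level of the list was 1847 and 3299 CPM for WT, 2287 and 3737 for Pld6 KO, and 7118 and 6115 for Dnmt3l KO. Of 5 tested markers of pachytene and later germ cells, 2 (Piwil1 and Spag6) were called lower. The list summed to 147 and 336 CPM for WT, 114 and 166 for Pld6 KO, and 273 and 181 for Dnmt3l KO. Ybx2 made up most of each sum, at 95.9 and 262 CPM for WT, 96.7 and 133 for Pld6 KO, and 254 and 167 for Dnmt3l KO. Piwil1 stood at 30.2 and 33.2 CPM for WT, 12.4 and 19.2 for Pld6 KO, and 6.20 and 6.66 for Dnmt3l KO. Of 10 spermatogonial markers, 1 (Sohlh1) was called lower. Of the somatic lists, 0 of 8 Sertoli, 0 of 3 Leydig and 0 of 4 peritubular myoid markers were called, and 1 of 3 macrophage markers (Mrc1) was called higher. Of 8 prospermatogonial markers 0 were called, and no blood marker was tested. Sertoli markers summed to 247 and 177 CPM for WT and to 139 and 48.3 for Dnmt3l KO. The part of cell composition in the Hist1h1t difference was not tested, and in sorted or bulk cells a larger share of a cell type cannot be told apart from more RNA per cell.

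Hist1h2ba encodes TH2B, which takes the place of H2B in spermatocytes. It had 33 and 42 fragments for WT, 34 and 53 for Pld6 KO, and 54 and 66 for Dnmt3l KO. In CPM these are 2.79 and 3.57, 4.94 and 4.18, and 10.8 and 4.72. Both libraries of each mutant lay above both of WT. The log2 fold change was 1.25 for Dnmt3l KO (SE 0.48, FDR = 0.130 by edgeR) and 0.51 for Pld6 KO (SE 0.48, FDR = 0.766 by edgeR), neither called. Without the Rn45s-rich libraries these were 1.07 (FDR = 0.384 by edgeR) and 0.24 (FDR = 0.981 by edgeR).

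Hist1h2aa encodes TH2A, which is transcribed from the other side of the same intergenic stretch. It had 45 and 12 fragments for WT, 31 and 12 for Pld6 KO, and 10 and 17 for Dnmt3l KO, or 3.81 and 1.02, 4.51 and 0.946, and 2.00 and 1.22 CPM. The groups overlapped, with replicate 1 of WT and Pld6 KO the highest. The log2 fold change was 0.11 for Pld6 KO (SE 0.80, FDR = 0.974 by edgeR) and -0.64 for Dnmt3l KO (SE 0.83, FDR = 0.650 by edgeR), and each changed sign in some alternatives.

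**Figure D3:**
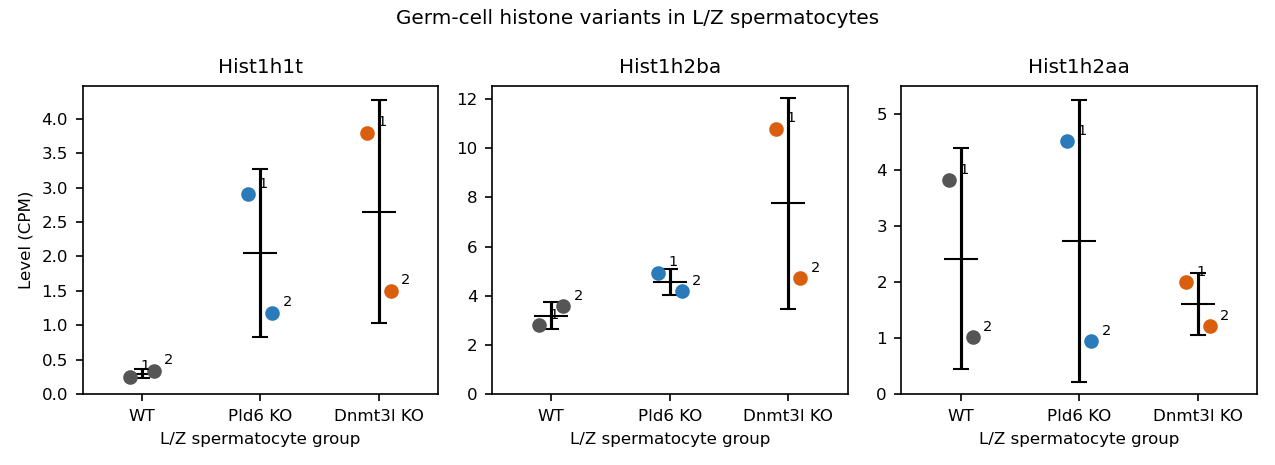
Level of Hist1h1t, Hist1h2ba and Hist1h2aa in CPM (vertical axes, from 0) in the L/Z libraries by group (horizontal axis); points are libraries with their replicate number, the horizontal line is the mean and the bar is 1 SD (n = 2). For Hist1h1t the WT points (0.254 and 0.340 CPM) lie below all 4 mutant points (1.18 to 3.80 CPM), and for Hist1h2aa the groups overlap.

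The other members of the L/Z comparisons are described by counts. With both replicates of a mutant above both WT libraries, the pattern of Hist1h1t and Hist1h2ba held in Pld6 KO for 2 of the 53 tested members (3.77%, against 21.6% of all tested genes) and in Dnmt3l KO for 6 (11.3% against 28.1%). The reverse, both Dnmt3l KO libraries below both of WT, held for 15 (28.3% against 27.5%). Unadjusted p was under 0.05 in edgeR for 6 members in Dnmt3l KO (11.3%, against 26.7% of genes) and for 1 for Pld6 KO (1.89% against 9.17%).

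The median log2 fold change of the tested members was -0.55 for Dnmt3l KO and -0.23 for Pld6 KO, against -0.04 and 0.00 over all genes. The latter member median was -1.22 without Pld6 KO replicate 1 and 0.30 without WT replicate 1. By family, 5 of 5 tested H1 genes were on the higher side in Pld6 KO and 4 of 5 for Dnmt3l KO, whereas 2 and 0 of 14 H2A genes were. These counts moved with the processing: without WT replicate 2, 2 of 5 H1 genes were on the higher side in either mutant, and with an offset for GC content and length and the replicate block, 9 of 14 H2A genes were in Dnmt3l KO. The median of all tested members in Dnmt3l KO was 0.36 with a factor for the Rn45s-rich libraries, 0.10 with the GC and length offset and 0.19 without WT replicate 1. Without both Rn45s-rich libraries, which left 48 members tested, the medians were 0.17 for Dnmt3l KO and -0.59 for Pld6 KO. In the same fits 4 of 15 H2A genes were on the higher side in Dnmt3l KO and 0 of 15 in Pld6 KO, and all 8 tested H3 genes were in Dnmt3l KO, against 4 of 8 with every library.

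H4 genes gave the next smallest p-values in Dnmt3l KO. Hist1h4n had 34 and 11 fragments for WT, 22 and 0 for Pld6 KO and 0 for both Dnmt3l KO libraries. Hist1h4m had 0 and 8, 0 and 16, and 25 and 34. The copies moved in opposite directions, and 89.8% of the windows of Hist1h4m and 85.6% of those of Hist1h4n occur in another member. Summed, the pair stood at 2.88 and 1.62 CPM for WT, 3.20 and 1.26 for Pld6 KO, and 5.0 and 2.43 for Dnmt3l KO, so that WT overlapped Dnmt3l KO. Neither was called (FDR = 0.101 and 0.103 by edgeR). Against Pld6 KO, Hist1h4n, Hist1h4m and Hist1h2ba had the smallest p-values of the members in Dnmt3l KO (FDR = 0.222, 0.304 and 0.447 by edgeR), and 1 member had an unadjusted p under 0.05 (1.89%, against 17.5% of genes).

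In Pld6 KO, the smallest p-values after Hist1h1t were those of the H2B gene Hist1h2be and the H2A gene Hist1h2ab. Hist1h2be had 18 and 11 fragments for WT and 4 and 5 for Pld6 KO (log2 fold change -1.36, SE 0.75, FDR = 0.599 by edgeR). Hist1h2ab had 29 and 14 for WT and 8 and 5 for Pld6 KO (-1.32, SE 0.74, FDR = 0.604 by edgeR). In CPM, WT lay above Pld6 KO in both genes without a call, but by little for Hist1h2ab. The share of all tested genes with that order was not counted. Among the 10 leading L/Z members, Hist3h2a had the widest ratio of highest to lowest FPKM, and it had 109 and 16 fragments for WT, 41 and 8 for Pld6 KO, and 7 and 10 for Dnmt3l KO.

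**Figure D4:**
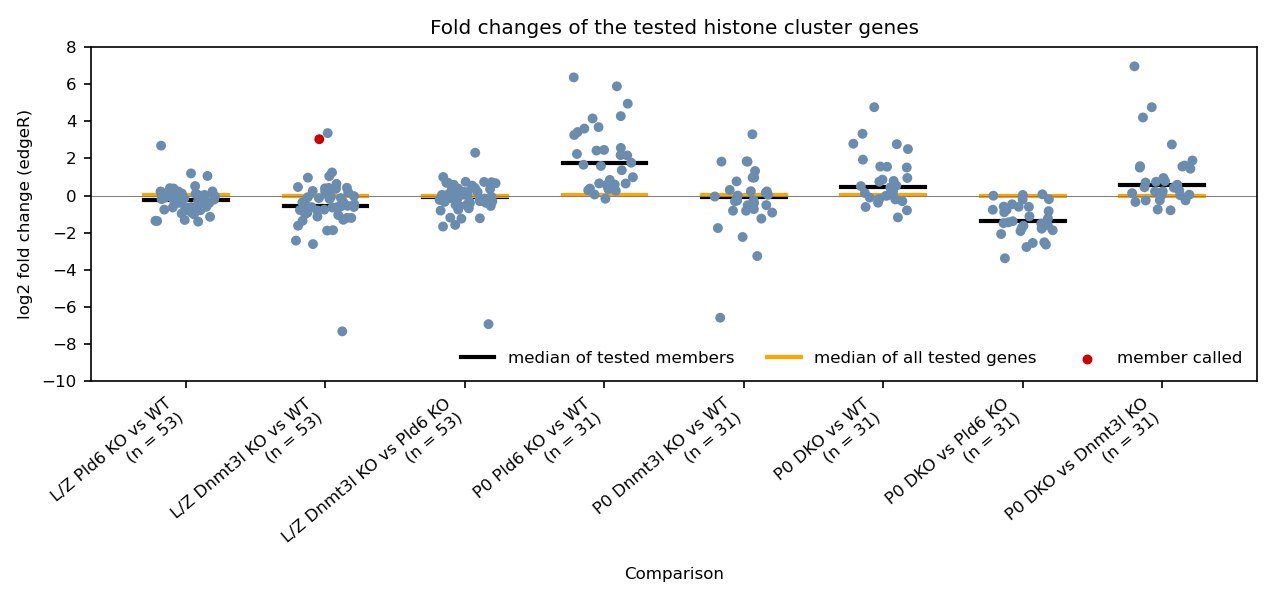
Log2 fold change (edgeR, vertical axis) of each tested member in 8 comparisons (horizontal axis, with the number tested), with the median of members in black and of all tested genes in orange. The red point is Hist1h1t in L/Z Dnmt3l KO against WT, the 1 member called; the extreme points at about -7 and 7 are members at 0 in every library of a group.

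The germ-cell variants were at or near 0 in P0 testes, where germ cells are prospermatogonia. Hist1h1t had 0 to 2 fragments in each of the 11 libraries, Hist1h2aa 0 or 1 and Hist1h2ba 0 to 6. None of these 3 genes was tested at P0. A count of 0 allows up to 3 fragments in a library.

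In P0 testes, the comparison with WT asked the same question for prospermatogonia within the whole organ. Calls were 0 of 31 tested members in Pld6 KO (0.00629% of all genes called), 0 for Dnmt3l KO (0% of all genes) and 0 for DKO (0.0126%). Unadjusted p was under 0.05 in edgeR for 14 members in Pld6 KO (45.2%, all higher, against 5.06% of all genes, or 3.14% for those higher), and for 0 for Dnmt3l KO (against 12.9%) and 0 for DKO (against 7.97%). DESeq2's Wald test gave 15 members with p under 0.05 for Pld6 KO and 0 adjusted calls.

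The Pld6 KO values rested on 2 of its 4 libraries. Replicate 4 was the highest of the 11 libraries in 43 of 67 members with a fragment (64.2%, against 10.2% of all tested genes), and replicate 1 in 13 (19.4% against 11%). The median log2 fold change of tested members was 1.77 against 0.02 over all genes, and 1.60 with the 2 members at 0 for WT set to their bound against 3 fragments per library. Without replicates 1 and 4, a choice made after seeing the data, 17 members were tested, 0 had an unadjusted p under 0.05, and the median was 0.22. It was 0.76 without replicate 4 alone, and 0.46 over members with a mean of at least 50 counts. Without WT replicate 1, 50 members were tested and 0 had an unadjusted p under 0.05. The number was 5 without Pld6 KO replicate 1, 5 without replicate 4 and 8 without WT replicate 2. Of the tested 31 members, 30 were on the higher side, but 14 more were tested than passed the filter without replicates 1 and 4.

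Linker and H3 genes had small p-values in Pld6 KO. Hist1h1e, a somatic linker gene, had 1 and 2 fragments for WT, and 63, 15, 2 and 40 for Pld6 KO. Hist1h3f, an H3 gene, had 0 and 2 for WT, and 41, 3, 1 and 30 for Pld6 KO. Replicates 1 and 4 were the high libraries in both, and replicate 3 overlapped WT. Pooled ratios to WT, scaled to library size, were 20 for Hist1h1e (exact 95% interval 6.68 to 98.4) and 18.8 for Hist1h3f (5.01 to 158), which cover counting error only. The edgeR FDR was 0.963 for both.

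The H2A gene Hist1h2af was the 1 member of these 3 with every Pld6 KO library above both WT libraries. These 3 were picked for their small p, and the share of all tested P0 genes with that order was not counted. However, 79.7% of its 50-base windows occur in another member, so its counts are uncertain. Hist1h2af had 5 and 4 fragments for WT and 19, 8, 14 and 19 for Pld6 KO. The log2 fold change was 1.77 (SE 0.61, unadjusted p = 0.0116, FDR = 0.963 by edgeR).

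By family, the summed H1 level was 3.14 and 5.29 CPM for WT, 23.2, 7.07, 5.22 and 22.1 for Pld6 KO, 4.82 and 6.07 for Dnmt3l KO, and 16.1, 4.78 and 3.06 for DKO. H3 genes summed to 0.595 and 1.93 CPM for WT, and 13.0, 2.62, 1.37 and 20 for Pld6 KO. H4 genes summed to 2.80 and 7.56 CPM for WT, and 18.1, 5.80, 4.11 and 23.2 for Pld6 KO. The replicates 1 and 4 exceeded every WT library in each of these families, while replicate 3 lay within the WT range in each. H2B genes, which include the spliced Hist1h2bc and the long Hist2h2be, varied least in ratio, at 27.6 and 41.5 CPM for WT, and 53.2, 36.7, 43.7 and 62.0 for Pld6 KO.

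The members with the most fragments at P0 had narrower ranges. Hist2h2be had 162 and 165 fragments for WT, 192, 178, 134 and 159 for Pld6 KO, 182 and 209 for Dnmt3l KO, and 184, 178 and 242 for DKO. In CPM it ranged from 10.1 to 19.6 over the 11 libraries, and the groups overlapped. Hist3h2a had 59 and 83 fragments for WT, 102, 97, 78 and 58 for Pld6 KO, 69 and 46 for Dnmt3l KO, and 41, 80 and 121 for DKO. Its CPM ranged from 3.99 to 8.42, with replicate 4 of Pld6 KO below WT replicate 2. The long or spliced members together stood at 33.2 and 46.2 CPM for WT, and 70.1, 47.1, 50.5 and 81.0 for Pld6 KO. The short members stood at 12.4 and 24.6 for WT, and 61.1, 23.3, 18.2 and 81.9 for Pld6 KO.

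Other RNAs were measured beside these sums. The tailless RNAs Rmrp and Rpph1, the RNA components of RNase MRP and RNase P, summed to 0.170 and 0.336 CPM for WT, 51.3, 6.36, 0.171 and 181 for Pld6 KO, 1.40 and 0.347 for Dnmt3l KO, and 8.64, 3.18 and 1.01 for DKO. They were highest in Pld6 KO replicates 4 and 1 and DKO replicate 1, the libraries with the highest histone sums. The 30 DNA replication genes did not follow that order, at 3006 and 3472 CPM for WT and 3464, 2098, 3217 and 2437 for Pld6 KO, and no gene of that list was called. Blood markers stood at 219 and 400 CPM for WT and 982, 262, 412 and 785 for Pld6 KO, with replicates 1 and 4 high, but also at 684 CPM in Dnmt3l KO replicate 1 and 634 CPM in DKO replicate 2. Leydig cell markers stood at 1519.7 and 1565 CPM for WT and 1701, 2343, 1880.5 and 3608 for Pld6 KO, with replicate 4 high. Peritubular myoid markers stood at 628 and 1023 CPM for WT and 1232, 912, 1176 and 1509 for Pld6 KO, with replicates 1 and 4 the highest of the 11 libraries. Sertoli cell markers stood at 2036 and 1622 CPM for WT and 1101, 1424, 1722 and 1197 for Pld6 KO, with replicates 1 and 4 the lowest of that genotype. The ribosomal RNA precursor Rn45s was left out of the P0 comparisons for its deposited status. Its share of fragments was given as 0% in all 4 Pld6 KO libraries. It was 0.104% to 0.656% in WT and Dnmt3l KO and 0.318% to 4.43% in DKO. Whether the values of 0 reflect absent RNA was not tested. The part of these RNAs in the histone sums was not tested.

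**Figure D5:**
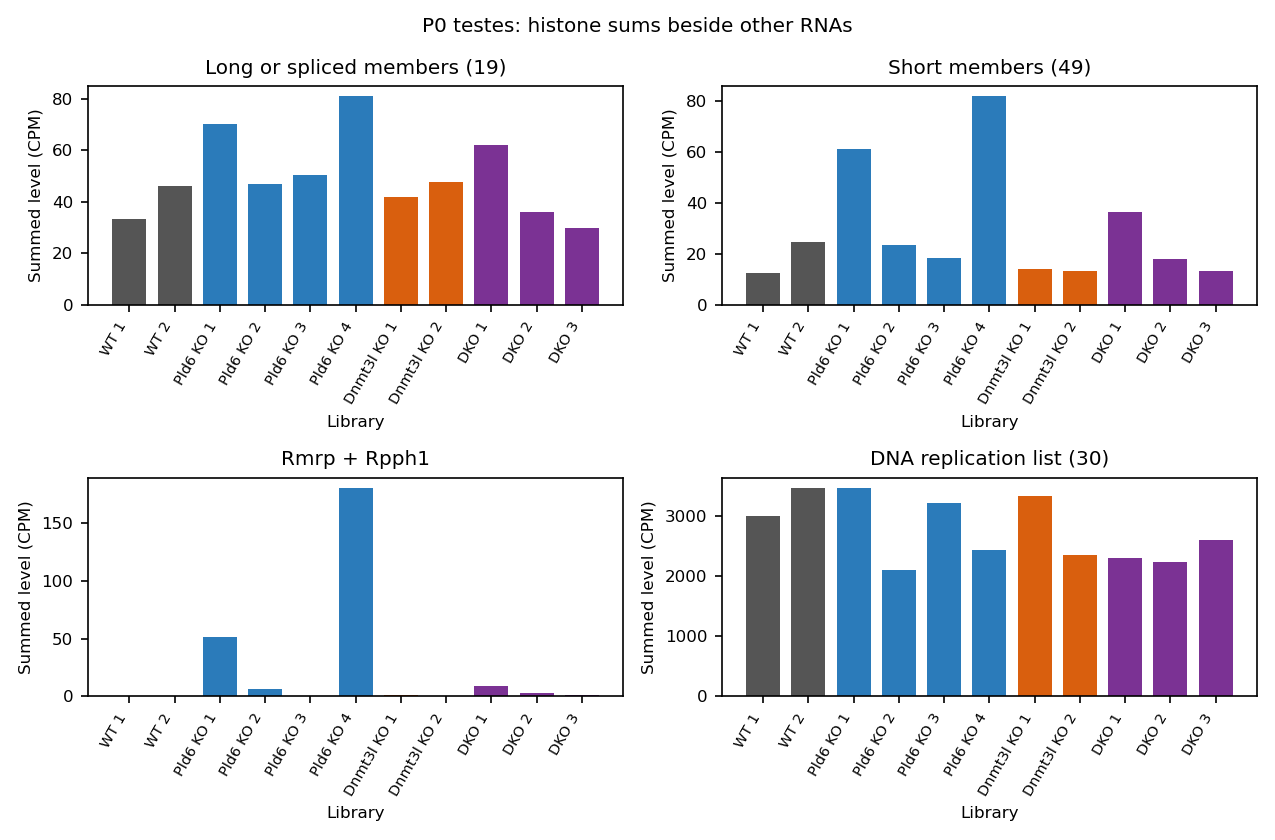
Summed level in CPM (vertical axes, from 0) in each P0 library (horizontal axes) of the 19 long or spliced members, the 49 short members, the tailless RNAs Rmrp and Rpph1, and 30 DNA replication genes. Pld6 KO 1 and 4 are the tallest bars in the first 3 panels, while in the DNA replication panel Pld6 KO 4 is below both WT bars.

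Hist1h2bc, which led in P0 testes by FPKM, is a spliced H2B gene of 2 exons. It had 102 and 149 fragments for WT, 191, 167, 212 and 194 for Pld6 KO, 103 and 183 for Dnmt3l KO, and 128, 105 and 193 for DKO, or 8.67 and 12.5 CPM, 15.8, 13.3, 18.2 and 19.5 CPM, 9.03 and 15.9 CPM, and 13.6, 7.96 and 8.09 CPM. All 4 Pld6 KO libraries lay above both WT libraries, an order whose share over all P0 genes was not counted, and DKO overlapped WT. Group means were 18.7 ± 5.34 FPKM for WT (SD, n = 2), 29.7 ± 5.22 for Pld6 KO (SD, n = 4), 20.7 ± 8.01 for Dnmt3l KO (SD, n = 2) and 17.1 ± 5.75 for DKO (SD, n = 3). The interaction, which measures how far DKO departed from both single effects added together on the log2 scale, was -1.0 (SE 0.43, unadjusted p = 0.0371, FDR = 0.442 by edgeR). DKO to Pld6 KO gave -0.77 (SE 0.26, FDR = 0.790 by edgeR).

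The comparisons among the P0 mutants gave 0 called members. Calls were 0 of 31 for DKO against Pld6 KO (0% of all genes), 0 for DKO against Dnmt3l KO (0.0755%) and 0 for the interaction (0%). Unadjusted p was under 0.05 in edgeR for 9 members in DKO against Pld6 KO (29%, all lower, against 6.02% of genes, or 2.55% for those lower), for 1 for DKO against Dnmt3l KO (3.23% against 17.8%) and for 3 in the interaction (9.68% against 10.9%). The median log2 fold change of members for DKO against Pld6 KO was -1.38, and it was -0.04 without Pld6 KO replicates 1 and 4, where 1 member had an unadjusted p under 0.05. The 9 members became 2 without DKO replicate 2 or 3, 3 and 5 without Pld6 KO replicate 4 or 1, and 18 without DKO replicate 1. With the replicate block they became 2, with a median of -0.68. These comparisons share the Pld6 KO libraries with the one above.

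Hist1h2af, whose P0 Pld6 KO values are given above, had 4, 3 and 7 fragments for DKO and 4 and 2 for Dnmt3l KO. All 3 DKO libraries lay below all 4 Pld6 KO libraries, and the share of all P0 genes with that order was not counted. The log2 fold change of DKO to Pld6 KO was -2.07 (SE 0.52, FDR = 0.655 by edgeR). The H3 gene Hist2h3c2 had 1 and 5 fragments for WT, 14, 11, 3 and 40 for Pld6 KO, 5 and 5 for Dnmt3l KO, and 3, 2 and 7 for DKO. Pld6 KO replicate 4 was the high library and replicate 3 overlapped DKO (-2.55, SE 0.82, FDR = 0.790 by edgeR). Its interaction was -3.31 (SE 1.46, FDR = 0.447 by edgeR). Of the windows of Hist2h3c2, 63.5% occur in another member, so its counts are uncertain too.

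In Dnmt3l KO and DKO at P0, the members with the smallest p-values had few fragments. Hist1h2bg had 4 and 26 for WT, 1 and 5 for Dnmt3l KO and 18, 4 and 11 for DKO, and the groups overlapped. Its log2 fold change was -2.23 for Dnmt3l KO (SE 1.06, FDR = 0.394 by edgeR) and 1.62 for DKO against Dnmt3l KO (SE 1.02, FDR = 0.403 by edgeR). Hist1h1d, a somatic linker gene, had 0 and 4 for WT and 31, 5 and 7 for DKO (pooled ratio 5.40, exact 95% interval 1.96 to 20.7, FDR = 0.697 by edgeR). Hist1h1e had 25, 5 and 3 for DKO (ratio to WT 5.53, interval 1.73 to 28.2, FDR = 0.712 by edgeR). DKO replicate 1 was the high library in both linker genes.

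The H2B gene Hist1h2bn had 1 and 0 for Dnmt3l KO and 8, 1 and 6 for DKO (ratio 7.30, exact 95% interval 1.12 to 307, FDR = 0.398 by edgeR). Of its 50-base windows, 86.45% occur in another member, so its counts are uncertain beyond that interval. The copies Hist2h2aa1 and Hist2h2aa2 cannot be separated: the second shares all its windows, and was at 0 for both Dnmt3l KO libraries. Together the pair stood at 1.95 and 1.18 CPM for WT, 3.55, 3.82, 2.83 and 6.04 for Pld6 KO, 2.54 and 2.00 for Dnmt3l KO, and 3.95, 3.64 and 1.97 for DKO. Dnmt3l KO replicate 2 and DKO replicate 3 lay close to WT replicate 1, and the other mutant libraries lay above both WT libraries. The share of all P0 genes with such an order was not counted. Fitted alone, Hist2h2aa1 gave 1.83 for Dnmt3l KO (SE 0.87, FDR = 0.395 by edgeR), 1.56 for DKO (SE 0.82, FDR = 0.674 by edgeR) and -2.43 for the interaction (SE 1.06, FDR = 0.446 by edgeR).

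Each mutation's effect was then compared between the stages, in 1 edgeR fit over 14 libraries and 61 tested members. Calls on the FDR alone were 0 for Pld6 KO (0.0121% of all 16547 genes) and 0 for Dnmt3l KO (0.665%). Unadjusted p was under 0.05 for 9 members in Pld6 KO (14.8% against 9.52% of genes, or 4.85% for those lower), each with the lower effect at L/Z, and for 1 for Dnmt3l KO (1.64% against 17.2%). For Pld6 KO this count was 0 without L/Z Pld6 KO replicate 2 or L/Z WT replicate 1, 1 without P0 Pld6 KO replicate 4 or P0 WT replicate 1, 2 without P0 Pld6 KO replicate 1, and up to 20 without L/Z Pld6 KO replicate 1. The Dnmt3l KO member was Hist1h2ba (FDR = 0.110 by edgeR), with the L/Z values above and, at P0, 2 and 2 fragments for WT and 0 for both Dnmt3l KO libraries, too few for a fold change there. For Hist1h2af, the Pld6 KO effect at L/Z minus that at P0 was -2.17 on the log2 scale (SE 0.93, FDR = 0.488 by edgeR). Its L/Z fragments were 14 and 9 for WT and 7 and 7 for Pld6 KO. The linker gene Hist1h1a had the smallest FDR of the members there (0.477 by edgeR). It had 121 and 60 fragments for WT and 81 and 80 for Pld6 KO at L/Z, and 1 and 0 for WT and 58, 6, 1 and 10 for Pld6 KO at P0, where replicate 1 was the high library. Hist1h2bn followed (FDR = 0.487 by edgeR), with 34 and 9 for WT and 17 and 3 for Pld6 KO at L/Z, and 1 and 1 for WT and 24, 3, 3 and 24 for Pld6 KO at P0. For Hist3h2a, the Dnmt3l KO effect at L/Z minus that at P0 was -2.26 (SE 1.21, FDR = 0.357 by edgeR). Its neighbour Hist3h2ba, an H2B gene, gave an FDR of 0.327 by edgeR, with 41 and 3 fragments for WT and 5 and 3 for Dnmt3l KO at L/Z, and 3 and 1 for WT and 5 and 8 for Dnmt3l KO at P0.

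Genes that act on the histone genes were taken as lists. Of 20 genes for histone gene transcription and 3′ end processing, 2 were called in L/Z Dnmt3l KO, both higher, against 3.89% of all genes called higher. They were Casp8ap2, which acts at histone locus bodies (log2 fold change 1.02, SE 0.22, FDR = 0.0236 by edgeR), and Zfp473, a U7 ribonucleoprotein partner (1.15, SE 0.27, FDR = 0.0332 by edgeR). Casp8ap2 stood at 187 and 178 CPM for WT, 266 and 334 for Pld6 KO, and 357 and 379 for Dnmt3l KO, so that the groups did not overlap. Slbp stood at 188 and 289 CPM for WT, 234 and 296 for Pld6 KO, and 320 and 360 for Dnmt3l KO. The list's median log2 fold change was 0.33 in L/Z Dnmt3l KO, 0.10 in L/Z Pld6 KO and -0.10 in P0 Pld6 KO.

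Of the 13 tested replacement and other non-cluster histones, 1 was called in L/Z Dnmt3l KO, the H2B-family gene H2bfm (log2 fold change 1.46, SE 0.34, FDR = 0.0300 by edgeR), at 7.45 and 12.7 CPM for WT and 30.4 and 25.3 for Dnmt3l KO. Of 30 DNA replication genes, 1 was called higher there, the cyclin gene Ccne2 (1.41, SE 0.22, FDR = 0.0087 by edgeR). Of 24 histone chaperones and 3 tested RNAs without a tail, 0 were called. Unadjusted p was under 0.05 there for 3 chaperones (1 higher) and for the 3 RNAs without a tail (all lower). Together these 5 lists had 4 of 90 tested genes called in L/Z Dnmt3l KO by edgeR, against 5.47% of all genes. At an unadjusted p under 0.05 in edgeR were 24 of the 90, against 26.7%. In L/Z Pld6 KO the lists had 0 calls in edgeR and 8 of 90 genes at an unadjusted p under 0.05, against 9.17%. In P0 Pld6 KO they had 0 calls and 2 of 87 such genes, Rmrp and Rpph1, against 5.06%. The replacement histones, most of whose mRNAs carry a tail, summed to 1764 to 3118 CPM over the L/Z libraries and to 3317 to 4488 CPM at P0, above the cluster members in every library.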

How the data were processed

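Poly(A)+ RNA was measured with a stranded kit (TruSeq stranded mRNA LT) in 17 libraries, 6 of L/Z spermatocytes (single reads of 50 bp) and 11 of P0 testes (read pairs of 100 bp). Samples were grouped by the labelled stage and genotype, and the labels call the replicates biological. The submitters' processing notes name TopHat, Cuffdiff and mm10. Versions and the strand setting of the counting are not given in the sources used here. For each gene and library, the deposited tables hold an estimated count of fragments before scaling (98.8% of L/Z and 98.9% of P0 values were whole within 0.01) and the FPKM that the authors' Cuffdiff run derived from it. Replicates were not pooled. Tables number replicates from 0 and labels from 1, and table number n was taken as label n + 1, which affects replicate names only.

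Counts were rounded and tested with edgeR 4.0.16 in R 4.3.3 (filterByExpr, TMM, glmQLFit, glmQLFTest), with all groups of a stage in 1 fit and Benjamini-Hochberg adjustment over all genes tested. SE was computed as the absolute log2 fold change divided by the square root of F. CPM was scaled by TMM. Genes with a status other than OK were left out (6 at L/Z, 2 at P0, 0 of them members). Depth was 5194238 to 14578341 (L/Z) and 9900346 to 23498968 (P0) fragments, and intervals cover counting error only. Named members were Hist1h1t, Hist1h2ba and Hist1h2aa, the 10 highest by FPKM at each stage, called members, and the 3 with the smallest p where fewer than 3 were called. Any other named gene was named after its values were seen. Lists covered replacement histones, histone gene transcription and processing, DNA replication, chaperones, RNAs without a poly(A) tail, and markers of spermatogonia, L/Z spermatocytes, pachytene and later germ cells, prospermatogonia, Sertoli, Leydig and myoid cells, macrophages and blood. The members and lists were chosen with earlier results of these data known. Alternatives were DESeq2 size factors, the DESeq2 Wald test, no filter, a mean of at least 50 counts, limma on log2(FPKM + 1) and log2(FPKM + 0.1), compared groups alone, no minimum fold, a block on replicate number, a factor for the Rn45s-rich L/Z libraries, a GC and length offset, and leaving out each replicate (limma 3.58.1, DESeq2 1.42.0). Sequences came from mm10, GENCODE M21 and RefSeq GRCm38.p6.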

Additional observations from a re-analysis of the deposited data

Results flagged for a closer look

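Within the 4 P0 Pld6 KO libraries, the highest sample stood far from the other 3 in 3 of the 29 groups of values examined, by a gap to the nearest library larger than Dixon's 95% critical value. The groups come from the same 4 libraries and are not independent, so this count cannot be set against a chance rate. All 3 were replicate 4. Hist1h1c, a somatic linker histone gene, stood at 12.78 CPM, against 3.58 to 5.04 CPM in the other 3 (gap 0.841 of the range). Hist2h2aa1, an H2A gene with a near-identical copy, stood at 6.038 CPM, against 1.65 to 2.07 (0.905). This library had all of the pair's fragments on that copy: summed with Hist2h2aa2, the 4 libraries stood at 3.55, 3.82, 2.83 and 6.04 CPM (gap 0.692 of the range), and the sum was not past the critical value. Hist1h2bg, an H2B gene, stood at 2.314 CPM, against 1.19 to 1.37 (0.842). In the same library Rmrp and Rpph1 summed to 181 CPM, and their part in these values was not tested.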

How the results depend on the processing

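Depth limits most of these values: 37 of 68 members averaged at least 10 fragments at L/Z and 17 at P0. In L/Z Dnmt3l KO against WT, where 1 member was called, 0 were called with the size factors of DESeq2, the Wald test of DESeq2 (which gave Hist1h1t no adjusted p), genes with a mean of 50 counts or more, the GC and length offset, that offset with the replicate block, and without the Rn45s-rich libraries. It was 2 without a filter, 3 with the compared groups alone, and 0 to 4 with each replicate left out. In Dnmt3l KO against Pld6 KO, where 0 were called, it was 0 to 1 with each replicate left out and 1 without the Rn45s-rich libraries. For the stage difference of the Dnmt3l KO effect it was 1 (Hist1h2ba) with limma on log2(FPKM + 0.1). The cause was not tested. Hist1h2aa changed sign in L/Z Pld6 KO (-1.34 to 1.34 with each replicate left out, and -0.094 without the Rn45s-rich libraries) and in L/Z Dnmt3l KO (-1.30 to 0.59 with each replicate left out, 0.67 with the Rn45s factor, 0.11 with the GC and length offset, 0.42 with the offset and block, and 0.58 without the Rn45s-rich libraries). The replicate block left the L/Z Dnmt3l KO count at 1, and changed no other count of calls. Same-numbered samples correlated at 0.51 (WT and Pld6 KO), -0.139 and -0.127 at L/Z and at -0.366 to 0.287 at P0. The WT and Pld6 KO libraries of 1 number at L/Z deviated together, and both replicates 1 are the Rn45s-rich libraries. The labels name no shared source, and over all groups the numbers were not taken as pairs. Leaving out the Rn45s-rich pair at L/Z or Pld6 KO replicates 1 and 4 at P0 was chosen after seeing the data. Over all alternatives, 223 counts of calls stayed within 1.5 times the reported count and 16 did not. Most of the 16 were in L/Z Dnmt3l KO against WT, the only comparison with a reported call. In the other comparisons, a kept count was 0 that stayed 0. A kept count of 1 need not be the same member. Of the fold changes of named members, 707 kept direction and side of the threshold, 8 changed sign, 10 passed it newly and 8 no longer did.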
